A study of Homo sapiens with 9 samples.

Results

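TFEB and TFE3 are transcription factors that drive lysosome and autophagy genes, and folliculin, its FNIP partners and the Rag GTPases are the machinery that keeps these factors in the cytoplasm when amino acids are plentiful. Transcripts of 9 genes of this circuit were followed in A375 cells given metformin: TFEB, TFE3, FLCN, FNIP1, FNIP2, RRAGA, RRAGC, RRAGD and GPNMB. They were taken by gene name from the 37118 genes of the deposited table, and all 9 were found. A375 is an established human melanoma line, labelled WT in every library. Metformin, a biguanide and antidiabetic drug, is known to inhibit complex I of the respiratory chain. Cells had 0, 20 or 40 mM of it in the medium, and 3 libraries were made at each dose, 9 in all. No label gives the length of exposure.

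At the lysosome, an active Rag heterodimer (RagA or RagB with RagC or RagD) recruits mTORC1, the growth kinase. Folliculin, in complex with FNIP1 or FNIP2, is the GTPase-activating protein of RagC and RagD, and this step is needed for mTORC1 to phosphorylate TFEB and TFE3. Unphosphorylated TFEB and TFE3 enter the nucleus and bind the CLEAR element, an extended E-box. RRAGD, FLCN, FNIP1, FNIP2 and RRAGC are known targets of these factors, which forms a feedback loop. GPNMB, a lysosomal and melanosomal glycoprotein, is a target of TFE3 and of their relative MITF. This control acts largely on the proteins and their location, which RNA levels do not report.

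Total counts were 65738242 to 75629413 per library. A gene was tested where its mean was at least 1 FPKM (fragments per kilobase of transcript, scaled to library depth), which 12394 genes passed. Of the 9 genes 8 passed and TFEB did not. Each of the 8 stood above 1 FPKM in every library, the lowest value being 1.11 for FNIP2, so none passed only through a treated group. The words rose and fell are used for genes called by edgeR's quasi-likelihood test at a Benjamini-Hochberg adjusted p under 0.05 over all tested genes. Changes are log2 fold changes ± SE with n = 3 per dose. Nothing in the labels says that replicates were separate cultures, so p-values reflect the variation among these libraries and that variation may be technical. Values are relative to all RNA of a library, and in such bulk samples a change in the cells present and a change in RNA per cell cannot be told apart. One library of the highest dose, replicate 3, lay away from its partners: its share of mitochondrial transcripts was 4.36%, where theirs were 3.01% and 3.27%. It held the fewest counts, 65738242, where theirs were 75518957 and 75629413. On the second axis of a principal component analysis of the tested genes (12.7% of variance) it lay at -22.6, and its partners at 17.7 and 15.2.

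The lineage markers SOX10 and S100B were present, at 104 and 10.2 FPKM in untreated cells and 85.5 and 5.98 FPKM at 40 mM, whereas the pigment genes PMEL, MLANA, DCT, TYRP1 and TYR were all under 1 FPKM on average at each dose. Macrophages are another known source of GPNMB RNA. Of 8 macrophage markers 6 were listed, all 6 averaged under 1 FPKM, and their summed level was 0.383 to 0.502 FPKM at 0 mM and 0.446 to 0.766 FPKM at 40 mM. The defining leukocyte gene PTPRC had a mean of 0 at 20 and 40 mM. Summed markers of other lineages were higher at 40 mM than at 0 mM in all libraries. Keratinocyte markers (3 of 4 listed, mostly KRT10) summed to between 23 and 26.6 FPKM at 0 mM, 26.4 and 27.2 FPKM at 20 mM, and 30.7 and 32.5 FPKM at 40 mM. The fibroblast sum (4 of 4 listed) was between 3.16 and 3.84 FPKM, then 3.79 and 4.93, then 5.81 and 6.74. It was nearly all LUM, whose mean went from 3.24 to 6.14 FPKM, while COL1A1, COL1A2 and DCN averaged under 1 FPKM at each dose. The endothelial sum (3 of 3 listed) was between 0.222 and 0.293 FPKM, then 0.222 and 0.37, then 0.628 and 0.81. All 3 sums overlapped between 0 and 20 mM. Their part in the results was not tested.

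Promoter sequences show what the genes offer to E-box binding factors, and RefSeq promoters (GRCh38.p14, from 250 bases before to 50 bases after an annotated start) were matched by symbol for 7 of the 9 genes, with 10 starts in all. RRAGA and RRAGD had no matched promoter and were not searched. The letters searched on both strands were CACGTG (the E-box), TCACGTG (the E-box with the T that precedes it in the CLEAR element, which overlaps the first) and TCATGTG (the M-box bound by MITF and its relatives). Shown first are the promoters of GPNMB, the gene with the largest change, and of FNIP1 and RRAGC, which rose with it. RRAGB, the RagA paralogue, is added because it held the most E-boxes. Capitals mark every match, read 5′ to 3′ along the gene's strand; CACGTGA and CACATGA are TCACGTG and TCATGTG on the opposite strand.
GPNMB, chr7:23246525-23246824, plus strand: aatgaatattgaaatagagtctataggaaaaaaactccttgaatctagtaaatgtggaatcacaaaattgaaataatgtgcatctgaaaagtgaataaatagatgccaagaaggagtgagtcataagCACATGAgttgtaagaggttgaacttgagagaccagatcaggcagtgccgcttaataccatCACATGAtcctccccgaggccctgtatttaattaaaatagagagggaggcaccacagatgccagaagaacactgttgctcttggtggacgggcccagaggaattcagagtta
FNIP1, chr5:131796968-131797267, minus strand: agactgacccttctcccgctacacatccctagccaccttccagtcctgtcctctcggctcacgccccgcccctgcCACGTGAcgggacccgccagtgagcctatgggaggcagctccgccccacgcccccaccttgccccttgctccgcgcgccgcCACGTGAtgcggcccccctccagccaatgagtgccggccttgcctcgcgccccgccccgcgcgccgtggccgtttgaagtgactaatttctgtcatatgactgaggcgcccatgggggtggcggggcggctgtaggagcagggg
RRAGC, chr1:38859723-38860022, minus strand: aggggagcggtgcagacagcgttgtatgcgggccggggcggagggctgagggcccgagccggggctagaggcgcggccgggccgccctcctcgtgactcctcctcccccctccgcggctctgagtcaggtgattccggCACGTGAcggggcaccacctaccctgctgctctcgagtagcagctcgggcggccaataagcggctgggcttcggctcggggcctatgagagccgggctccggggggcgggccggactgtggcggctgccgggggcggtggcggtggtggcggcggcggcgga
RRAGB, chrX:55717499-55717798, plus strand: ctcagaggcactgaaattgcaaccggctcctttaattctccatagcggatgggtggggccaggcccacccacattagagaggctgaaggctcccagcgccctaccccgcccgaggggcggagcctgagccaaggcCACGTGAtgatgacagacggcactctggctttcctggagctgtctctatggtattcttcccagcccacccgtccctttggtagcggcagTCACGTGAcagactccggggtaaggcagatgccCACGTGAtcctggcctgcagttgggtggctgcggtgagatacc

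The GPNMB promoter held 2 M-boxes, with their first bases at -123 and -62 (0 is the start base), and no E-box; 0.0968% of the 35116 promoters in the table held 2 or more M-boxes, and 2.92% held at least 1. The FNIP1 promoter held 2 E-boxes, at -175 and -94, a number reached by 0.664% of promoters. RRAGC held 1, at -112, and 7.26% of promoters had at least 1. RRAGB held 3, at -115, -25 and 7, which 0.094% of promoters reached. Each of these E-boxes had, on at least 1 strand, the T that precedes it in the CLEAR element (TCACGTG). This form was present in 3.71% of promoters. The other bases of the CLEAR element were not searched. A second start of FNIP2 had 1 M-box. These letters did not occur in the windows of TFEB (3 starts), TFE3, FLCN or the first start of FNIP2, nor in those of MITF. A match describes the sequence and is not evidence of binding. The GPNMB window surrounds the RefSeq start, which lies inside the longer interval of the deposited gene.

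**Figure D1:**
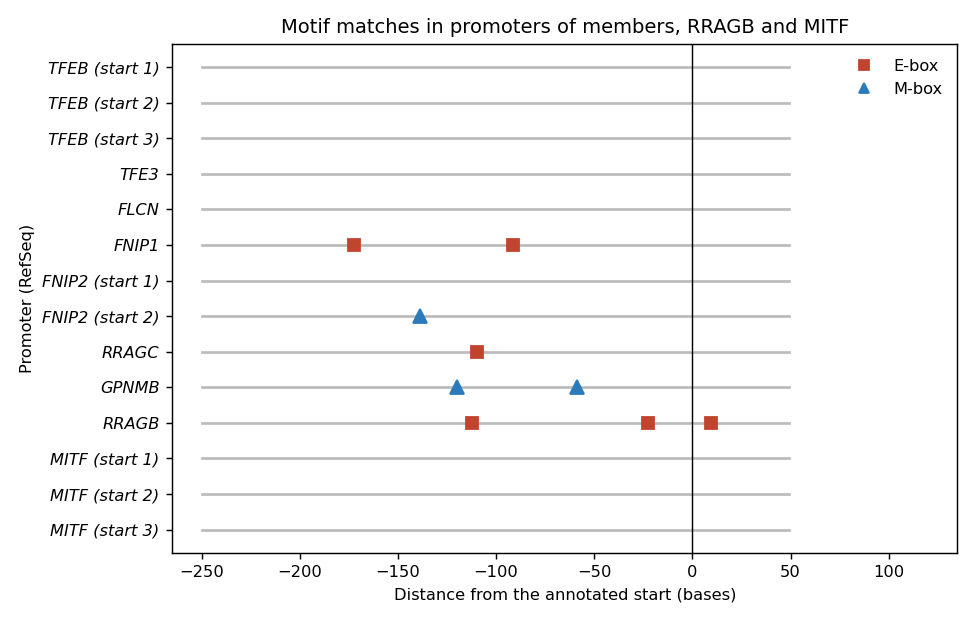
Positions of E-box (squares) and M-box (triangles) matches in bases from the annotated start (vertical line), 1 row per RefSeq promoter. FNIP1, RRAGC and RRAGB carry 2, 1 and 3 E-boxes, and GPNMB carries 2 M-boxes. RRAGA and RRAGD are absent because no promoter was matched.

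Metformin was accompanied by higher transcript levels of most of these genes, in steps that followed dose. At 20 mM, 6 of the 8 tested genes rose and none was called as fallen, and at 40 mM 7 rose and none fell. Over all tested genes, 31.6% were called at 20 mM (16.3% rose and 15.2% fell) and 56.2% at 40 mM (28.8% rose and 27.4% fell). The median log2 fold change of the 8 was 0.28 at 20 mM and 0.66 at 40 mM, against 0.001 and -0.001 over all tested genes. Both doses are compared with the same 0 mM libraries, so the comparisons are not independent. Without adjustment, 1 gene (RRAGA) was lower at 20 mM at p under 0.05 and 0 were at 40 mM; DESeq2 called 1 lower at 20 mM and 0 at 40 mM, and limma 0 at both.

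**Figure D2:**
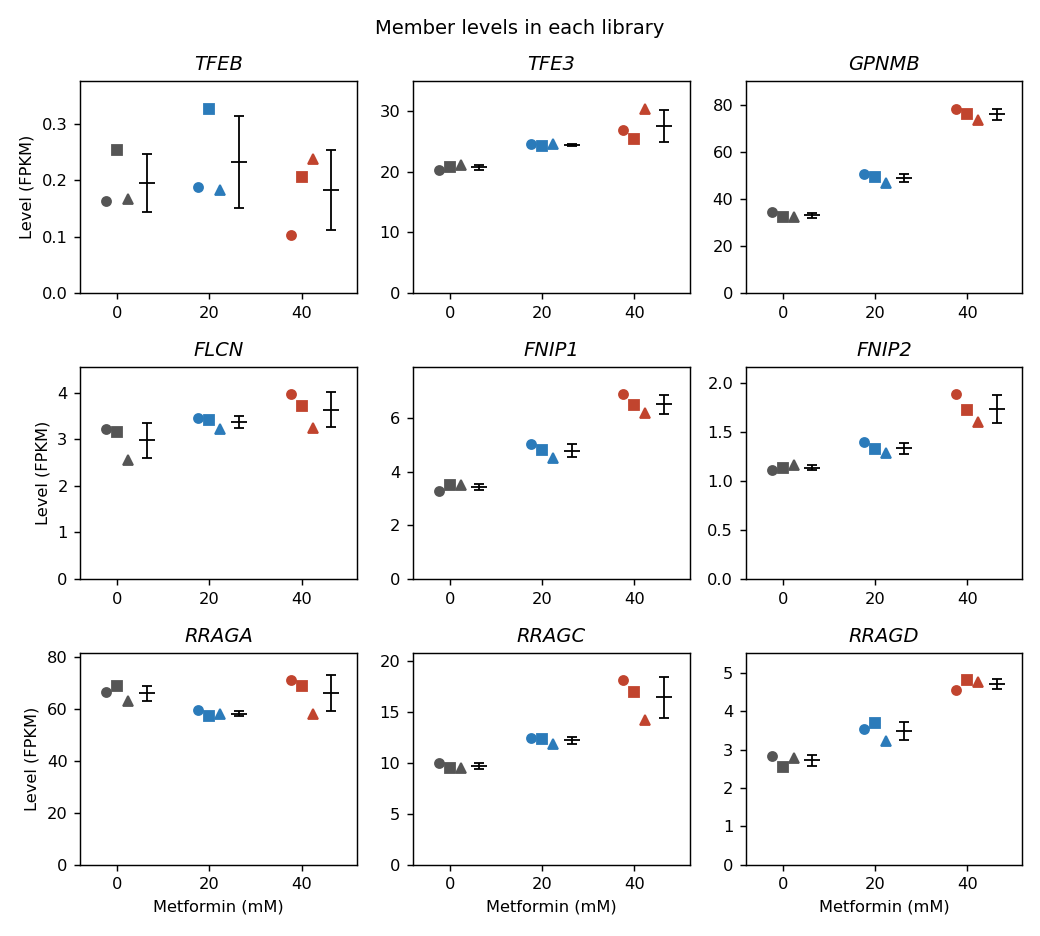
FPKM of each of the 9 genes in each library at 0, 20 and 40 mM metformin (circles, squares and triangles are replicates 1, 2 and 3; bars are mean ± SD, n = 3; axes start at 0). GPNMB, FNIP1, FNIP2, RRAGC, RRAGD and TFE3 step up with no overlap between doses, RRAGA dips at 20 mM, and TFEB reaches at most 0.327 FPKM. The share of all tested genes without overlap between doses was not counted, so the separation is a description.

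Among the transcription factors, TFE3 was by far the more abundant. TFE3 (ENSG00000068323, chromosome X, 49028726 to 49043410) measured 20.3, 20.8 and 21.1 FPKM in the 0 mM libraries. It measured 24.5, 24.2 and 24.5 FPKM at 20 mM, and 26.8, 25.3 and 30.3 FPKM at 40 mM. Every treated library was above every untreated one, and every 40 mM library above every 20 mM one. The rise was 0.23 ± 0.06 at 20 mM (adjusted p = 0.013) and 0.37 ± 0.06 at 40 mM (adjusted p = 0.00033), the latter 1.3-fold. Between 40 and 20 mM the change was 0.14 ± 0.06 and was not called (adjusted p = 0.1). Replicate 3 held the highest 40 mM value; without it the 40 mM change was 0.29 (adjusted p = 6.9e-05) and that from 20 to 40 mM was 0.06. Without replicate 2 of 40 mM, the change from 20 to 40 mM was called at 0.20 (adjusted p = 0.027).

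TFEB (ENSG00000112561, chromosome 6, 41683978 to 41736259) was well under the filter of 1 FPKM in every library. The untreated libraries held 80, 120 and 81 counts of it, those with 20 mM held 91, 149 and 88, and those with 40 mM held 51, 100 and 100. In FPKM these were 0.163, 0.254 and 0.168, then 0.188, 0.327 and 0.182, then 0.104, 0.206 and 0.239. The values of the 3 doses overlapped. With no filter on low values, edgeR's quasi-likelihood test over 37118 genes gave 0.25 ± 0.34 at 20 mM (adjusted p = 0.77) and -0.16 ± 0.34 at 40 mM (adjusted p = 0.84), with an SE well above the 0.05 to 0.10 of the tested genes. Per length, the TFEB level averaged 0.0094 of the TFE3 level at 0 mM and 0.00662 of it at 40 mM (exact permutation p = 0.3, two-sided; 3 against 3 libraries cannot go below 0.1).

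MITF, the melanocyte member of the same family, averaged 3.06, 2.68 and 3.10 FPKM at 0, 20 and 40 mM. Its change was -0.19 ± 0.10 at 20 mM (adjusted p = 0.19) and -0.01 ± 0.10 at 40 mM (adjusted p = 0.93), so neither passed the test. With 1 library left out the estimate at 40 mM ran from -0.11 to 0.06. TFEC, the fourth relative, had 11 to 40 counts per library and was not tested. Of the 4 relatives, TFE3 was called at both doses, MITF was tested and not called, and TFEB and TFEC did not pass the filter for testing.

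GPNMB (ENSG00000136235, chromosome 7, 23235967 to 23274729) changed most. It measured 34.5, 32.5 and 32.6 FPKM at 0 mM, 50.5, 49.5 and 46.9 FPKM at 20 mM, and 78.5, 76.03 and 73.6 FPKM at 40 mM. The 3 doses were separated by wide gaps, and all 3 replicates of each lay close together. It rose 1.47-fold at 20 mM (0.56 ± 0.05, adjusted p = 1.2e-05) and 2.24-fold at 40 mM (1.16 ± 0.05, adjusted p = 2.9e-08). From 20 to 40 mM the rise was 0.60 ± 0.05 (adjusted p = 3.7e-05). Without replicate 3 of 40 mM the change was 1.18. Summed macrophage markers were 0.383 to 0.502 FPKM at 0 mM and 0.446 to 0.766 FPKM at 40 mM. Their part in the GPNMB values was not tested.

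In the folliculin complex, FNIP1 and FNIP2 rose at both doses and FLCN was called at 40 mM; differences in change between FLCN and its partners were not tested. FLCN (ENSG00000154803, chromosome 17, 17212212 to 17237188), the tumour suppressor of Birt-Hogg-Dubé syndrome, measured 3.23, 3.16 and 2.54 FPKM at 0 mM, 3.46, 3.42 and 3.21 FPKM at 20 mM, and 3.96, 3.71 and 3.23 at 40 mM. The 40 mM libraries only just cleared the 0 mM ones, and the 20 mM libraries overlapped both. Its change of 0.17 ± 0.10 at 20 mM was not called (adjusted p = 0.2), and that of 0.25 ± 0.10 at 40 mM was called at the edge of the threshold (adjusted p = 0.045). This call was lost without replicate 2 (0.29, adjusted p = 0.054) or 3 (0.15, adjusted p = 0.16) of 0 mM, without any 1 of the 20 mM libraries (adjusted p = 0.056 to 0.06) and without replicate 1 (0.19, adjusted p = 0.15) or 2 (0.24, adjusted p = 0.1) of 40 mM. FLCN shares 5468 bases with MPRIP, a myosin phosphatase regulator on the opposite strand at a mean of 20.8 FPKM, which rose by 0.30 ± 0.03 at 40 mM. The libraries mark strand, but no source says whether counting used it, and the part of MPRIP in the FLCN values was not tested.

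FNIP1 (ENSG00000217128, chromosome 5, 131641714 to 131797063), a partner that holds folliculin to its Rag substrate, went from 3.28, 3.49 and 3.51 FPKM at 0 mM to 5.01, 4.81 and 4.51 FPKM at 20 mM and 6.87, 6.47 and 6.17 at 40 mM. Doses did not overlap. It rose 1.39-fold at 20 mM (0.48 ± 0.06, adjusted p = 0.00015) and 1.85-fold at 40 mM (0.89 ± 0.06, adjusted p = 5.7e-07), and again from 20 to 40 mM (0.41 ± 0.06, adjusted p = 0.00051).

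FNIP2 (ENSG00000052795, chromosome 4, 158769026 to 158908050), the alternative partner, was lower throughout. It measured 1.11, 1.14 and 1.16 FPKM at 0 mM, 1.39, 1.32 and 1.29 FPKM at 20 mM, and 1.88, 1.72 and 1.60 at 40 mM, with no overlap between doses. It rose by 0.58 ± 0.08 at 40 mM (adjusted p = 8.1e-05) and by 0.35 ± 0.08 from 20 to 40 mM (adjusted p = 0.0064). Its rise at 20 mM, 0.23 ± 0.08 (adjusted p = 0.04), was lost without any 1 of the 6 libraries at 0 and 20 mM (adjusted p = 0.063 to 0.13) and without replicate 2 of 40 mM (adjusted p = 0.054). The ratio of FNIP1 to FNIP2, per length, averaged 3.02 at 0 mM, 3.58 at 20 mM and 3.75 at 40 mM. On the log2 scale this was 1.59 ± 0.03, 1.84 ± 0.03 and 1.91 ± 0.04 (SD, n = 3), a difference of 0.32 between 40 and 0 mM with no overlap (exact permutation p = 0.1, two-sided, the smallest that 3 against 3 allows; 0.3 adjusted over 9 ratio tests).

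Of the Rag genes, RRAGC and RRAGD rose at both doses and RRAGA at neither. RRAGC and RRAGD encode the subunit on which folliculin acts. RRAGC (ENSG00000116954, chromosome 1, 38838198 to 38859772) measured 10.03, 9.53 and 9.50 FPKM at 0 mM, 12.4, 12.4 and 11.8 FPKM at 20 mM, and 18.1, 17.0 and 14.2 at 40 mM. The doses did not overlap, although replicate 3 lay well below its 40 mM partners. The rise was 0.33 ± 0.08 at 20 mM (adjusted p = 0.0076) and 0.73 ± 0.08, or 1.66-fold, at 40 mM (adjusted p = 1.6e-05). Without replicate 3 the 40 mM change was 0.82.

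RRAGD (ENSG00000025039, chromosome 6, 89364616 to 89412273) measured 2.84, 2.56 and 2.77 FPKM at 0 mM, 3.53, 3.69 and 3.22 FPKM at 20 mM, and 4.55, 4.81 and 4.77 at 40 mM. Its replicate 3 at 40 mM lay between the others of that dose, unlike that of RRAGC. It rose by 0.35 ± 0.07 at 20 mM (adjusted p = 0.0048) and by 0.76 ± 0.07, or 1.69-fold, at 40 mM (adjusted p = 1e-05). The log2 ratio of RRAGD to RRAGC was -1.83 ± 0.06 at 0 mM, -1.81 ± 0.07 at 20 mM and -1.80 ± 0.21 at 40 mM (SD, n = 3), so RRAGC stayed the more abundant of the pair. The difference of 0.04 between 40 and 0 mM lay within the spread (exact permutation p = 0.9, two-sided).

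RRAGA, a single-exon gene encoding the other subunit (ENSG00000155876, chromosome 9, 19049427 to 19051025), was the one tested gene that rose at neither dose. It measured 66.8, 68.8 and 63.0 FPKM at 0 mM, 59.5, 57.5 and 58.0 FPKM at 20 mM, and 71.2, 69.0 and 58.3 at 40 mM. All 20 mM libraries were below all 0 mM libraries, and 2 of the 40 mM libraries were above them while replicate 3 was below. The change was -0.19 ± 0.07 at 20 mM (adjusted p = 0.056) and -0.03 ± 0.07 at 40 mM (adjusted p = 0.68), or 0.05 (adjusted p = 0.4) without replicate 3 of that dose. Without replicate 3 or replicate 1 of 40 mM, which enter through the shared spread, the lower level at 20 mM was called (-0.19 in both, adjusted p = 0.0039 and 0.039). Without replicate 3, the return from 20 to 40 mM was called as well (0.23, adjusted p = 0.0029).

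RRAGB, its close paralogue and the gene with 3 E-boxes shown above, was at a far lower level. It measured 2.83, 2.86 and 3.28 FPKM at 0 mM, 3.25, 3.55 and 3.30 FPKM at 20 mM, and 4.70, 5.26 and 4.26 at 40 mM. The 20 mM libraries overlapped the untreated ones and the 40 mM libraries stood above both. It rose by 0.63 ± 0.10 at 40 mM (adjusted p = 0.00043) but not at 20 mM (0.17 ± 0.10, adjusted p = 0.25). No source says how reads common to RRAGA and RRAGB, or to RRAGC and RRAGD, were assigned.

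**Figure D3:**
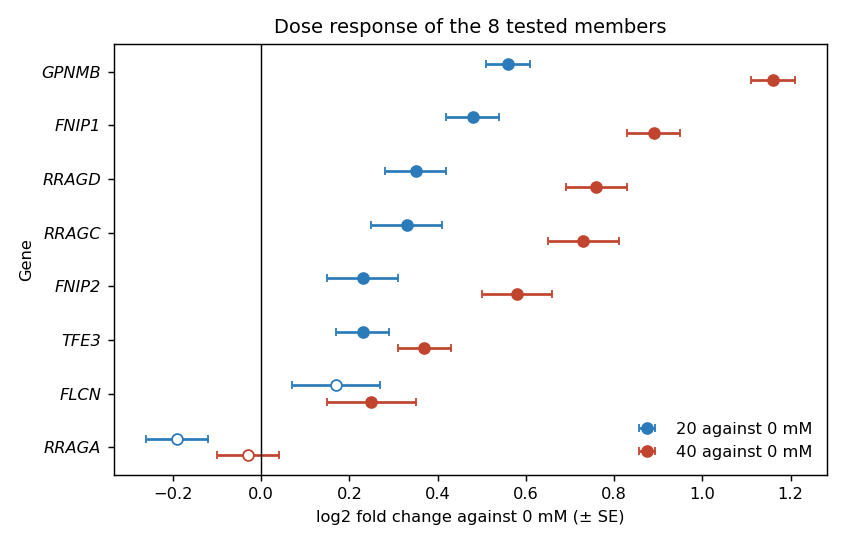
Log2 fold change ± SE against 0 mM for the 8 tested genes at 20 mM and 40 mM (n = 3 per dose; filled points passed the test, open points did not). GPNMB reaches 1.16 and FNIP1 0.89 at 40 mM, whereas FLCN is at 0.25 and RRAGA at -0.03.

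The size of the second dose step was compared with that of the first in the same edgeR fit. Of the 8 genes, 5 rose again from 20 to 40 mM (GPNMB, FNIP1, FNIP2, RRAGC and RRAGD), where 14.3% of all tested genes rose and 15.1% fell. For those 5 the difference between the steps lay between -0.06 and 0.12 on the log2 scale, with SE of 0.08 to 0.13. None of the 8 (0 by edgeR's quasi-likelihood test, by DESeq2 and by limma) had steps that differed, and 1 did at an unadjusted p under 0.05. Over all tested genes 6.83% were called, 2.73% with a larger signed second step and 4.11% with a smaller one. That 1 gene was RRAGA (0.34 ± 0.12, adjusted p = 0.11), whose step difference was called without replicate 3 of 40 mM (0.42, adjusted p = 0.005).

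Within a dose the FPKM levels, which are per length, spanned more than the changes with dose. At 0 mM the order was RRAGA, GPNMB, TFE3, RRAGC, FNIP1, FLCN, RRAGD, FNIP2 and TFEB. Of these neighbours only FLCN (2.54 to 3.23 FPKM) and RRAGD (2.56 to 2.84) overlapped. At 40 mM GPNMB, at 76.04 ± 2.41 FPKM (SD, n = 3), stood above RRAGA, at 66.2 ± 6.88, with no overlap, whereas at 0 mM it stood at 33.2 ± 1.11 against 66.2 ± 2.92. RRAGD, at 4.71 ± 0.139 FPKM, likewise stood above FLCN, at 3.63 ± 0.370, at 40 mM.

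Among genes with a mean of at least 5 FPKM, those whose log2(FPKM + 1) followed GPNMB most closely over the 9 libraries were CELF1 and KIRREL1 (Pearson r = 0.997 for both). CCDC9B (0.996) and B4GALT1 (0.994) followed FNIP1, and ZDHHC6 (0.992) and RO60 (0.99) followed RRAGD. These are descriptions: all points share the 3 doses, so any gene that rises in even steps scores high.

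The genes that act around the Rags moved in both directions. In the list of RRAGB, the Ragulator scaffold and the arginine-sensing transporter SLC38A9, 2 of 7 rose and 2 fell at 40 mM, with a median of 0.05, shares close to the 28.8% and 27.4% of all tested genes. LAMTOR3 rose (0.19 ± 0.05) with RRAGB, and LAMTOR2 (-0.62 ± 0.08) and LAMTOR1 (-0.18 ± 0.04) fell. GATOR1, which switches RagA and RagB off, GATOR2, which opposes it, and KICSTOR, which tethers GATOR1 to the lysosome, leaned the other way from the Rag genes: 9 of 11 tested fell and 1 rose, with a median of -0.34. Among those that fell were C12orf66 of KICSTOR (-0.97 ± 0.12), WDR59 of GATOR2 (-0.36 ± 0.06) and NPRL3 of GATOR1 (-0.35 ± 0.06). The gene that rose, MIOS of GATOR2 (0.39 ± 0.08), is named after its value was seen.

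Of 3 tested amino acid sensors 1 rose and 1 fell. SESN2, a leucine sensor whose gene is a known target of ATF4, rose by 1.38 ± 0.07 at 20 mM and 1.01 ± 0.07 at 40 mM, the only gene of the lists outside the CLEAR targets, GPNMB aside, past 1 log2 unit. SESN1 was called at -0.35 ± 0.10 at 40 mM, a call lost without replicate 2 of 0 mM. In mTORC1 and its RHEB and TSC switch, 3 of 9 rose and 5 fell at 40 mM, with a median of -0.17. Over all tested genes 28.8% rose and 27.4% fell. With limma on TPM 3 of this list fell. TSC1 (0.40 ± 0.04) and its partner TBC1D7 (0.47 ± 0.11) rose, and the kinase MTOR (-0.25 ± 0.05) and its subunit RPTOR (-0.17 ± 0.05) fell. The other called genes are named after their values were seen. RHEB (0.15 ± 0.05) rose, and DEPTOR (-0.56 ± 0.17), TSC2 (-0.27 ± 0.07) and MLST8 (-0.19 ± 0.06) fell.

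Genes that place TFEB in the nucleus or cytoplasm also moved both ways. These comprise calcineurin, which dephosphorylates TFEB, the lysosomal calcium channel MCOLN1, the cytoplasmic anchors of the YWHA family with SFN, and the exporter XPO1. At 40 mM 2 of 13 rose and 6 fell, with a median of -0.06, where 28.8% of all tested genes rose and 27.4% fell. With limma on TPM 3 of these 13 fell. The calcineurin catalytic genes diverged, PPP3CA rising by 0.41 ± 0.06 and PPP3CB falling by 0.72 on the log2 scale. The anchors YWHAE (-0.33 ± 0.03) and YWHAG (-0.32 ± 0.05) fell. SFN was the other riser (0.82 ± 0.27), named after its value was seen. It averaged 0.964 FPKM at 0 mM, under the filter of 1 FPKM, and 1.75 FPKM at 40 mM. SFN thus passed the filter only through treated libraries. In the list 1 gene rose without replicate 2 or without replicate 3 of 0 mM.

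Lysosomal and autophagy genes listed as CLEAR targets mostly rose, as the feedback genes did. Of 38 tested, 21 rose and 1 fell at 20 mM, and 29 rose and 4 fell at 40 mM, with medians of 0.16 and 0.37. Over all tested genes 16.3% rose and 15.2% fell at 20 mM, and 28.8% rose and 27.4% fell at 40 mM. The protease genes CTSB (0.74 ± 0.03) and TPP1 (1.12 ± 0.07), the autophagosome gene GABARAPL1 (0.98 ± 0.06) and the chloride exchanger CLCN7 (0.63 ± 0.04) had the smallest p-values at 40 mM. Those that fell, named after their values were seen, were the hydrolases NAGLU (-0.57 ± 0.08), GAA (-0.49 ± 0.10) and GUSB (-0.22 ± 0.09) and the tethering subunit VPS11 (-0.36 ± 0.06). These lists were not tested as sets. The fall at 20 mM was NAGLU, and the count of falls there was 0 without replicate 2 or 3 of 0 mM or replicate 1 or 2 of 20 mM, and 2 without replicate 3 of 20 mM or of 40 mM.

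**Figure D4:**
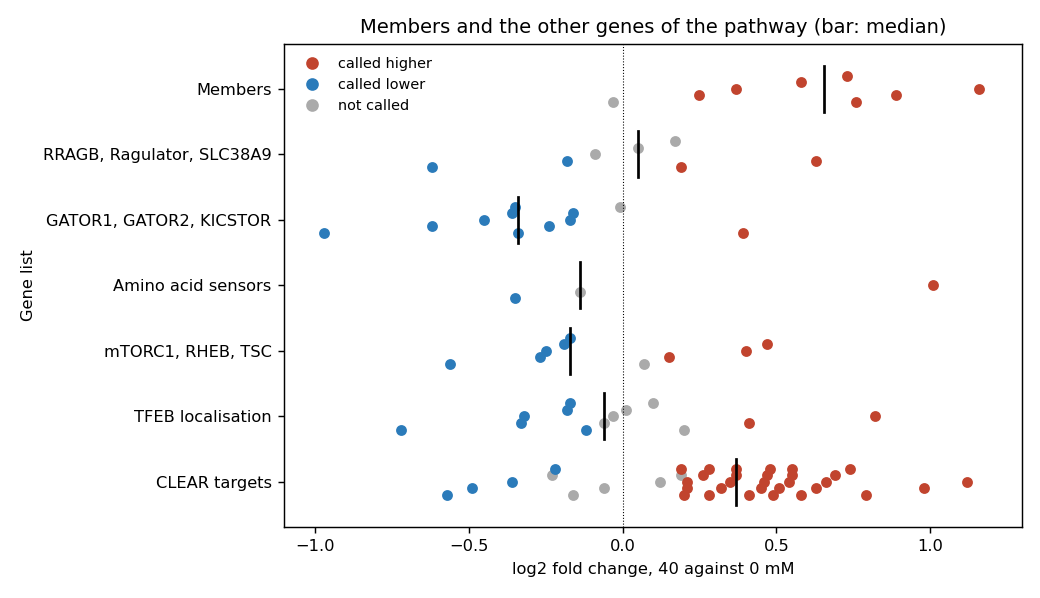
Log2 fold change at 40 against 0 mM for the 8 tested genes of the TFEB, TFE3, folliculin and Rag set and for 6 other lists of the pathway; each point is 1 gene, coloured by its call, and bars are medians. The set and the CLEAR targets lie mostly to the right of 0, with medians of 0.66 and 0.37, and the GATOR and KICSTOR genes mostly to the left, at -0.34.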

How the data were processed

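A375 RNA was isolated with TRIzol and selected on oligo(dT) beads, per the labels' protocols, and libraries that mark strand (dUTP with UDG) were read from both ends. The deposited table gives read counts per gene and library, per the file headers. The authors' FPKM values stand in the same table, per the file headers. Per the submitters' processing notes the tools included StringTie 2.1.6. No source used here names the aligner, annotation, build or strand setting. Of the 9 genes, 8 have their deposited start or end in RefSeq GRCh38.p14, and 4 have both.

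Counts were scaled by TMM and tested with edgeR 4.0.16 (quasi-likelihood, R 4.3.3), all 9 libraries in 1 fit with dose as a factor, over genes with a mean of at least 1 FPKM. Alternatives used limma 3.58.1, DESeq2 1.42.0, other scalings and filters, a replicate block and each library left out. The tests were tested on simulated data. No 2 libraries were copies: at most 0.516% of tested genes had equal counts. Genes named are the 9 members, MITF, RRAGB, up to 4 called genes per list by p at 40 mM (2 where none was called) and the 2 closest in pattern to GPNMB, FNIP1 and RRAGD. A gene that this rule names is not reported here. Members and lists were chosen with earlier results of these data known.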

Additional observations from a re-analysis of the deposited data

How the results depend on the processing

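Of 444 log2 fold changes of the 8 genes in the 3 dose comparisons under an alternative, 414 kept their side of the threshold, 20 lost a call and 10 gained one. The sign differed in 3, all of RRAGA at 40 mM and not called: 0.02 with library totals alone and with limma on TPM, and 0.05 without replicate 3 of 40 mM, against -0.03. GPNMB, FNIP1, RRAGC, RRAGD and TFE3 were called at both doses against 0 mM under each alternative that tested them at an adjusted p of 0.05. FNIP1 and RRAGD were not tested with the filter at 5 FPKM, and TFE3 at 20 mM (adjusted p = 0.013) does not pass a threshold of 0.01. The calls lost were those of FNIP2 at 20 mM and of FLCN at 40 mM. FNIP2 at 20 mM was also lost with no filter (0.23, adjusted p = 0.094) and with limma (0.13 to 0.21, adjusted p = 0.11 to 0.14), and FLCN at 40 mM with no filter (0.24, adjusted p = 0.14) and with only the 6 libraries compared (0.25, adjusted p = 0.079). With a filter at 5 FPKM, only TFE3, RRAGA, RRAGC and GPNMB of the set were tested. Of these, 3 rose at 20 mM, 3 at 40 mM and 2 between the doses. The counts over all genes with that filter are given below. RRAGA was called lower at 20 mM, as 1 gene, with DESeq2 (adjusted p = 0.026) and with only the 6 libraries (adjusted p = 0.0059). TFE3 was called between 40 and 20 mM with library totals alone (0.18) and with limma on TPM (0.20).

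No label says whether the replicate numbers mark a shared batch. Correlations of deviations between same-numbered libraries ran from -0.101 to 0.186 over 9 pairs. The best match among the 3 libraries of another dose had the same number in 7 of 18 cases. Such a check over all tested genes cannot exclude pairing. The share of mitochondrial transcripts rose from replicate 1 to 3 at each dose. It went from 2.76% to 3.53% at 0 mM, 3.63% to 3.77% at 20 mM and 3.01% to 4.36% at 40 mM. With a replicate block 1 gene was called lower at 20 mM, RRAGA (-0.18, adjusted p = 0.025), and FLCN was called at 20 mM (0.18, adjusted p = 0.041).

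Leaving out 1 library gave 5 to 6 genes rising at 20 mM and 0 to 1 falling, 6 to 7 rising at 40 mM, 5 to 6 rising from 20 to 40 mM, and 0 to 1 in the step difference. Over all 12394 tested genes it gave 1432 to 2498 higher and 1274 to 2468 lower at 20 mM. At 40 mM it gave 3092 to 3631 higher and 2957 to 3504 lower. From 20 to 40 mM 1142 to 1966 were higher and 1266 to 2099 lower. In the step difference 30 to 750 were higher and 149 to 914 lower. The filter at 5 FPKM was passed by 6983 genes. It gave 1324 higher and 1193 lower at 20 mM, 2168 and 2077 at 40 mM, and 1174 and 1193 between the doses. A threshold of 0.01 gave 1168 higher and 999 lower at 20 mM, 868 and 990 between the doses, and 39 and 169 in the step difference. The step difference had 92 higher and 293 lower with no filter, 629 and 809 with DESeq2, and 288 lower with limma on TPM, which gave 1127 lower between the doses. No scaling moved the median of all genes by more than 0.06. Of 304 counts for the pathway lists under an alternative, 279 stayed within 1.5 times. TFEB, at 51 to 149 counts per library, was under the filter, and the source of its wide SE was not tested.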

Other observations

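Because GPNMB and the second start of FNIP2 hold M-boxes, the promoter search was extended to all tested genes, after the data had been seen and as a description with no test. Of 8885 tested genes matched by symbol to a RefSeq promoter, 29.7% rose and 29.4% fell at 40 mM. Of the 215 with an M-box (TCATGTG, both strands) 103, or 47.9%, rose and 17.2% fell, with a median log2 fold change of 0.15. For the E-box CACGTG the shares were near the background, with 30.2% of 1166 genes rising and 31.0% falling. With the T of the CLEAR element before it (TCACGTG), 34.0% of 683 rose and 26.8% fell. Genes with 2 or more E-boxes, as in FNIP1, rose in 31.8% of 132 cases.

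M-box promoters differed in make-up, with a median GC content of 58.9% against 65.0% and 2.17 against 1.45 listed starts per gene. Among genes with 1 listed start, 47.7% of 107 M-box genes rose against 28.6% of all 6351. With 2 or more listed starts the shares were 48.1% of 108 against 32.4% of 2534. In each comparison the set of all genes includes the M-box genes. Below the median promoter GC the shares were 51.0% of 151 against 29.7% of 4437, and at or above it 40.6% of 64 against 29.7% of 4448. With the filter at 5 FPKM, which tests fewer genes, 62 M-box genes rose and 22 fell at 40 mM. Over all genes tested with that filter 2168 rose and 2077 fell. The number of M-box genes it tested is not given, so no share can be read from these counts. The M-box genes include GPNMB and FNIP2, which prompted the search. What the M-box genes share beyond these letters was not tested.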
